A study of Mus musculus with 28 samples.

Results

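Liver RNA of CAR-deficient mice fed ethanol together with resveratrol (EtOH + RSV, 3 arrays) was compared with that of CAR-deficient mice fed the liquid diet without ethanol (control, 3 arrays). These were 6 of the 28 arrays of the series, and they were taken by their labels. All 6 mice were on the C3H/HeN background, lacked the constitutive androstane receptor (CAR, encoded by Nr1i3) in the whole body, were labelled female and were 5 weeks old on arrival. They took Lieber's isocaloric liquid diet freely for 1 week and then at 12 g per day for 4 weeks. In the control diet water stood in place of ethanol, and the EtOH + RSV diet contained ethanol and trans-resveratrol, the latter at an intake of about 50 mg per kg body weight per day. By the paper's formula the control diet also held more maltose and dextrin than the diets with ethanol. Ethanol and this lower carbohydrate content therefore cannot be told apart in comparisons with control. Of the other CAR-deficient mice, 3 received ethanol alone (EtOH) and 3 received ethanol with ellagic acid (EtOH + EA). The same 4 diets were given to wild-type C3H/HeN mice, 4 per diet. RNA came from whole liver, 1 mouse per array, so that fewer cells of a type and less RNA per cell cannot be told apart.

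CAR is a nuclear receptor of hepatocytes that, once activated by drugs such as phenobarbital, moves to the nucleus and switches on genes of xenobiotic metabolism, above all the Cyp2b and Cyp2c families, glutathione and sulfo-transferases and export pumps. Many of these genes also respond to other nuclear receptors such as PXR, and some are higher in one sex. Sex-biased liver genes in mice follow the pattern of growth hormone release, pulsatile in males and near continuous in females, which acts through STAT5 and the repressors BCL6 and CUX2. Ethanol is oxidised in hepatocytes by alcohol dehydrogenase, CYP2E1 and aldehyde dehydrogenases, and its prolonged intake is known for fat accumulation and oxidative stress in the liver. Resveratrol is a stilbene polyphenol of grapes.

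Signals of 45101 probe sets were deposited as log2 values summarised with the Distribution Free Weighted method (DFW). Differences below are on this DFW log2 scale, which stretches probe sets that vary and flattens those that do not, so a difference is not a calibrated fold change. After 64 control probe sets and 26 without values were left out, 45011 probe sets were tested. Of these, 35711 (79.3%) had an SD of at most 0.01 over the 12 CAR-deficient arrays and are called compressed here, because a difference between groups then has no readable size. The other 9300 are called uncompressed, and they represented 5182 of the 18188 named genes.

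The arrays were alike over all probe sets, with Pearson r between 0.97883 and 0.99843. The first EtOH array stood furthest from the rest, with a median r of 0.983 to the others and the outermost value of 652 probe sets. It enters the comparison with control only through the shared estimate of the spread. Among the EtOH + RSV arrays the third stood apart, with a median r of 0.989 against 0.994 for the first and second, and 79 outermost probe sets. The 3' beta-actin control probe set read 12.54 on it and 12.96 and 13.01 on the others of its group. Nr1i3 itself read 8.79, 8.55 and 8.69 in control and 9.40, 8.83 and 8.60 in EtOH + RSV. It read 8.96 to 10.10 over the wild-type arrays. The position of its probes relative to the deleted part of the gene is not known, so this level does not check the genotype. The labels give the mice as female, but Xist, the X-inactivation RNA of female cells, was compressed in all 12 CAR-deficient arrays, its 3 probe sets at 5.93, 6.19 and 6.68. Eif2s3y, a gene of the Y chromosome, read 9.41 to 10.01 on one of its probe sets, above 91.7% of probe sets. In the 16 wild-type arrays Xist was likewise low, at 5.98, 6.11 and 6.47, with Eif2s3y at 9.17. The second Eif2s3y probe set (5.92), the Kdm5d probe sets (6.15 to 7.65) and the Uty probe sets (6.45 to 7.87), also of the Y chromosome, were as flat as Xist over the CAR-deficient arrays. Low Xist and the 1 high Eif2s3y probe set stand against the labelled sex, which the other Y-linked probe sets do not settle, and no sample was left out because of them. Of the sex-biased liver genes, the male-biased Cyp7b1 read 12.61, 12.41 and 12.19 in control. The male-biased Hsd3b5, Slco1a1 and Cyp4a12a, whose values are given further below, were also high in control. The female-biased Cyp2b13 read 6.20, 6.32 and 6.36 there, and Sult3a1 5.62, 5.74 and 5.58. Other female-biased genes read higher in control, such as Cyp2b9 at 7.71, 9.06 and 10.31. The sex of the mice was not tested further.

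With ethanol plus resveratrol, 27 probe sets passed the test against control (limma fitted over the 12 CAR-deficient arrays, Benjamini-Hochberg adjusted p of at most 0.05), which is 0.06% of the 45011 tested. Of these, 15 were higher (0.0333%) and 12 lower (0.0267%), 22 were uncompressed and 5 compressed. They named 18 genes, 11 higher and 7 lower, and 4 probe sets had no gene name in the annotation used. The gene with the largest difference was Hsd3b5, a male-predominant steroid-metabolising enzyme of mouse liver, which fell by 5.70, and the largest rise was that of Cyp2c29, a cytochrome P450 of drug and retinoid metabolism, at 2.69. The number called depended on the setting. With the test restricted to the 9300 uncompressed probe sets it was 276 (2.97%), 180 higher (1.94%) and 96 lower (1.03%), and by the rank product 969. Without the first EtOH array it was 128, of which 98 were uncompressed, and with the fit limited to the control and EtOH + RSV arrays it was 12. Leaving out the second or the third control array gave 10, and leaving out the third EtOH + RSV array or the third EtOH + EA array gave 17.

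**Figure D1:**
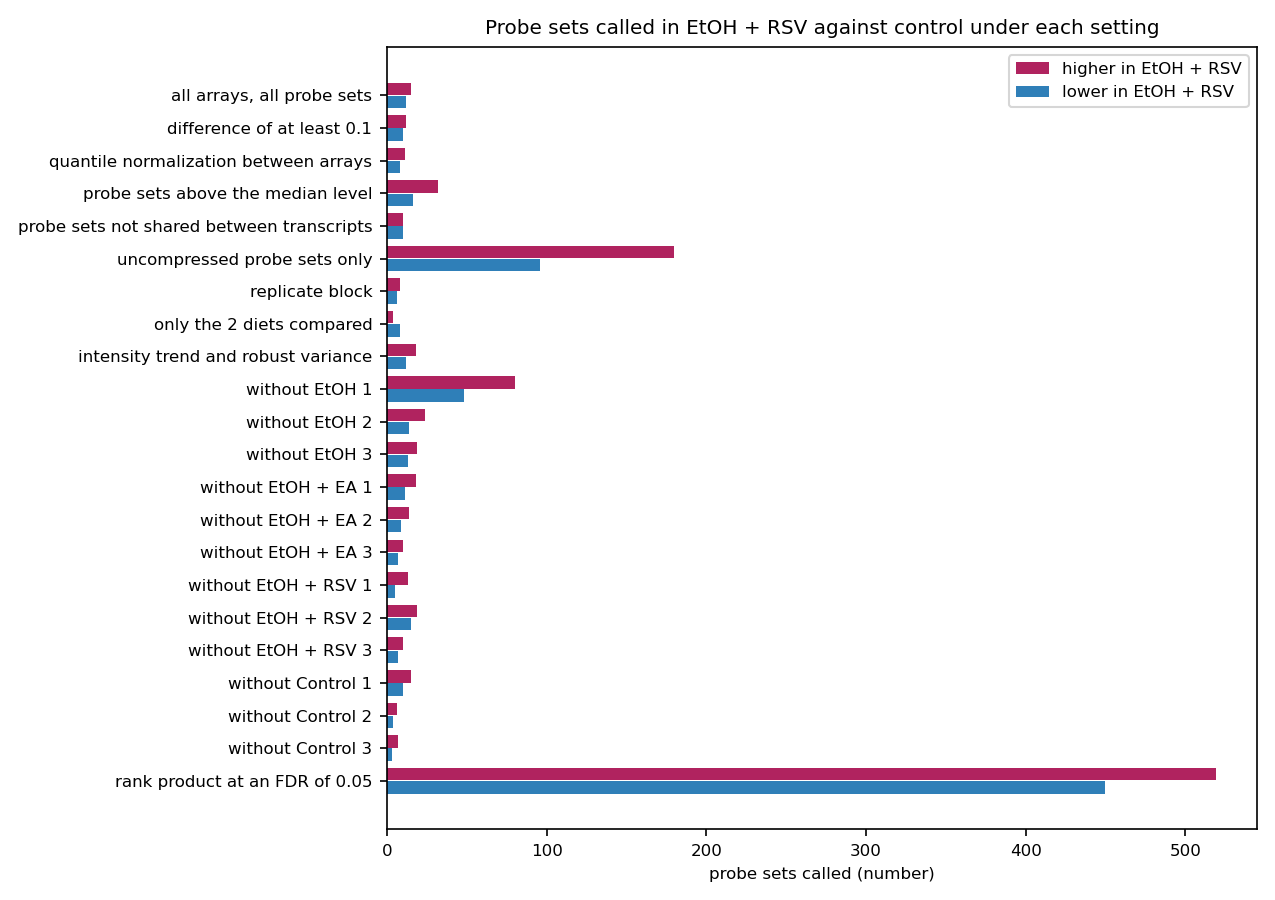
Number of probe sets called higher and lower in EtOH + RSV than in control in CAR-deficient liver (horizontal axis) under each setting (vertical axis). The total runs from 10 without the second or the third control array to 969 by the rank product. The 15 higher and 12 lower of the reported fit lie toward the low end.

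Hsd3b5 read 12.14, 12.40 and 12.12 in the control arrays. It read 6.52, 6.73 and 6.32 in the EtOH + RSV arrays (difference -5.70, SE 0.12, adjusted p = 8.472e-07). The level was 6.77, 6.51 and 6.54 with EtOH alone and 6.27, 6.39 and 6.31 with EtOH + EA, so every array of the ethanol-fed groups lay far below the control arrays. The call held in all 19 alternatives run, and leaving out any of the 6 arrays gave a difference between -5.80 and -5.59.

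Gpr137b, which encodes a membrane protein of lysosomes, was at 7.75, 7.66 and 7.65 in control and at 6.193, 6.007 and 5.995 in EtOH + RSV (difference -1.62, SE 0.13, adjusted p = 0.0055). A second probe set of the gene fell by 1.02 (adjusted p = 0.0106), and its remaining probe sets were compressed. Sec61a1, the pore-forming subunit of the channel that brings new proteins into the endoplasmic reticulum, read 7.74, 7.79 and 7.74 against 7.01, 6.94 and 6.94 on one probe set (difference -0.80, SE 0.09, adjusted p = 0.0326). Its other probe sets were not called, and the call was kept in 8 of 19 alternatives. In each of these genes the EtOH + RSV arrays lay closer to each other than to any control array.

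Mrpl41, a protein of the large mitochondrial ribosome subunit, fell on both of its probe sets, by 0.52 (SE 0.05, adjusted p = 0.0106) and by 0.36 (SE 0.04, adjusted p = 0.0165). On the first it read 10.51, 10.55 and 10.59 in control and 9.98, 10.07 and 10.06 in EtOH + RSV. Ddx46, a helicase of the spliceosome, was at 8.999, 9.025 and 9.066 against 8.589, 8.633 and 8.677 (difference -0.40, adjusted p = 0.0074). These differences were small, and the arrays within each group were nearly equal. The probe sets naming Pdia6, a disulfide isomerase, and Lrp10, a lipoprotein receptor family member, were called lower but were compressed, with differences of -0.0047 and -0.0004.

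Among the genes that rose, Cyp2c29 read 10.24, 9.68 and 10.14 in control and 12.41, 12.77 and 12.93 in EtOH + RSV (difference 2.69, SE 0.19, adjusted p = 0.0039). It was the only member of the list of CAR targets to pass, in mice that lack CAR. The call was kept in 18 of 19 alternatives and was lost with the fit limited to control and EtOH + RSV (adjusted p = 0.148). The Cyp2c genes are near-identical neighbours, and probes may read more than one of them.

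Slc2a1, the glucose transporter GLUT1, was at 7.79, 7.52 and 7.56 in control and 8.70, 8.56 and 9.03 in EtOH + RSV on its brightest probe set (difference 1.14, SE 0.13, adjusted p = 0.0364). All 3 of its probe sets were called higher, the others by 1.03 (adjusted p = 0.0133) and 0.54 (adjusted p = 0.0029). Slc8b1, the sodium-calcium exchanger of mitochondria, read 9.19, 9.29 and 9.25 against 9.92, 10.07 and 9.93 (difference 0.73, SE 0.06, adjusted p = 0.0074). Both are membrane transporters, and in neither did the groups overlap.

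A further set of called genes acts in transcription. Rcor3, a corepressor of the CoREST family, read 7.68, 7.72 and 7.71 in control and 8.31, 8.29 and 8.31 in EtOH + RSV (difference 0.60, SE 0.02, adjusted p = 6.21e-05), and a second probe set rose by 0.51 (adjusted p = 0.0439). Sp1, a factor that binds GC-rich promoters, was at 9.34, 9.24 and 9.30 against 9.96, 9.89 and 9.82 (difference 0.60, adjusted p = 0.0143). Brd8, a bromodomain protein of the NuA4 acetyltransferase complex, was at 7.05, 7.18 and 7.24 against 7.55, 7.59 and 7.58 (difference 0.41, adjusted p = 0.0262). The zinc finger gene Zfp760 was at 7.46, 7.50 and 7.59 against 7.84, 7.86 and 7.87 (difference 0.34, adjusted p = 0.0094).

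Both remaining uncompressed genes encode ubiquitin ligases. Rffl read 8.43, 8.43 and 8.30 in control and 9.06, 9.13 and 9.16 in EtOH + RSV (difference 0.73, SE 0.06, adjusted p = 0.0064). Cblb, which restrains receptor signalling, was at 7.63, 7.62 and 7.64 against 8.20, 8.20 and 8.15 (difference 0.56, SE 0.03, adjusted p = 0.0012). The centrosome genes Pcm1 and Pcnt were called higher on compressed probe sets, by 0.0005 and 0.0006. Hsd3b5, Gpr137b, Rcor3 and Cblb kept their calls in every alternative run, while Slc2a1 kept the call of its brightest probe set in 7 of 18.

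**Figure D2:**
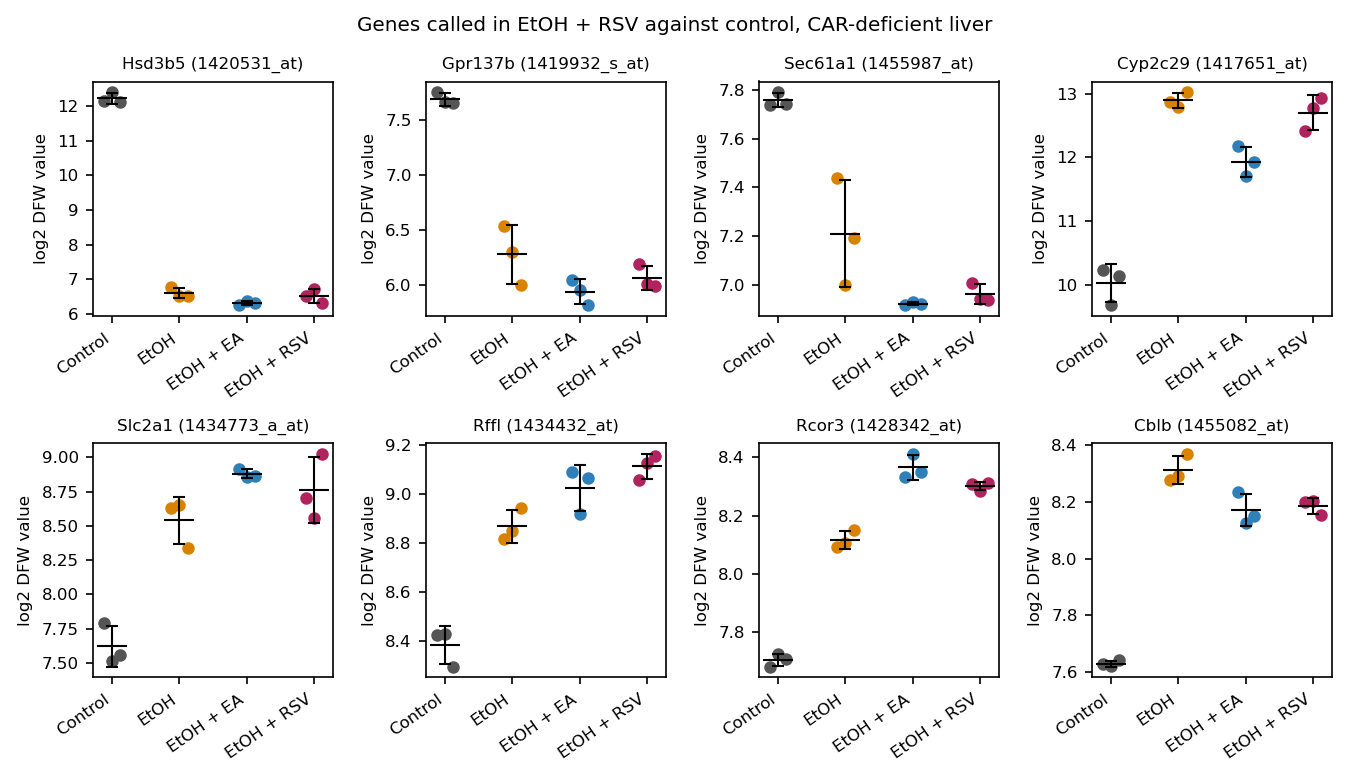
Log2 DFW values (vertical axis) of called genes in CAR-deficient liver by diet (horizontal axis); each point is 1 array, 3 per diet, and the black marks give mean and SD. The EtOH + RSV points of Hsd3b5 lie between 6.32 and 6.73 against 12.12 to 12.40 in control, and those of Cyp2c29 between 12.41 and 12.93 against 9.68 to 10.24.

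The fall of Hsd3b5 was set beside a list of male-biased liver genes, of which 27 were measured and 25 were uncompressed. Hsd3b5 was the single member called, where 0.022% of all named genes were called lower. All 25 lay lower in EtOH + RSV in sign, with a median of -0.99, where the median over all 5182 uncompressed genes was 0.0054. In 20 of the 25 the 3 EtOH + RSV arrays lay below the 3 control arrays without overlap, where 12.4% of uncompressed genes did so. With only uncompressed probe sets tested, 11 members were called lower, against 1% of those genes.

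Slco1a1, an organic anion carrier of the sinusoidal membrane, read 12.18, 12.43 and 12.38 in control and 9.99, 8.88 and 6.94 in EtOH + RSV (difference -3.73, adjusted p = 0.097). Cyp4a12a, a fatty acid hydroxylase, read 11.33, 11.44 and 11.34 against 9.84, 9.12 and 6.74 (difference -2.80, adjusted p = 0.19). In both the groups were far apart, but the EtOH + RSV arrays spread over several units with the third lowest. Members with less spread were C6, a complement component, at -1.61 (adjusted p = 0.052), Cyp7b1, the oxysterol hydroxylase, at -1.58 (adjusted p = 0.077) and the NADPH oxidase Nox4 at -1.12. Nox4 was at 10.85, 10.94 and 10.89 in control and 9.80, 9.71 and 9.81 in EtOH + RSV (adjusted p = 0.064). Without the first EtOH array in the fit, C6, Cyp7b1 and Nox4 passed along with Hsd3b5. The third EtOH + RSV array was the lowest of its group in 18 of the 25 genes, and leaving out any of the 6 arrays gave list medians between -1.13 and -0.85.

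Female-biased liver genes lay the other way. All 24 measured members were uncompressed and none was called, but 22 were higher in sign and the median was 1.09. In 18 of them the EtOH + RSV arrays lay above all control arrays, where 16% of uncompressed genes did so, and 7 were called with uncompressed probe sets alone, against 1.85%. Leaving out an array gave medians between 0.91 and 1.15.

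Cyp2b9, a P450 that is low in adult males, read 7.71, 9.06 and 10.31 in control and 12.40, 12.49 and 12.62 in EtOH + RSV (difference 3.48, SE 0.62, adjusted p = 0.095). Cyp2b13 read 6.20, 6.32 and 6.36 against 9.06, 9.49 and 8.56 (difference 2.75, adjusted p = 0.13). Slc22a26, an organic anion transporter family member, read 5.98, 6.25 and 6.58 against 8.41, 9.46 and 10.87 (difference 3.31, adjusted p = 0.093). The groups did not overlap in any of the 3, and the spread was in the control arrays for Cyp2b9 and in the EtOH + RSV arrays for Slc22a26. Sult3a1, a sulfotransferase, was at 5.62, 5.74 and 5.58 in control and 7.12, 7.57 and 11.28 in EtOH + RSV (difference 3.01, adjusted p = 0.39), a value set largely by the third array. Cux2, the female-predominant repressor of male genes, differed by 2.11 (adjusted p = 0.18). Bcl6, the other repressor named above, differed by 0.42 (adjusted p = 0.92), and its groups overlapped. Within the list of growth hormone signalling genes the 16 uncompressed members had a median of 0.11, and none was called. In that list 4 of the 16 did not overlap on the higher side and 3 on the lower, beside the 16% and 12.4% of all uncompressed genes. With uncompressed probe sets alone 1 member was called higher, against 1.85%.

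Of the CAR target list, 37 genes were measured and 36 were uncompressed. Cyp2c29 was called, where 0.0495% of all named genes were called higher. Of the 36 members, 31 were higher in sign, and the median was 0.53. The groups did not overlap in 20, all higher, beside the 16% of all uncompressed genes, and with uncompressed probe sets alone 9 were called higher, against 1.85%. Cyp2c37 read 11.02, 10.68 and 10.61 in control and 11.97, 11.70 and 12.21 in EtOH + RSV (difference 1.19, adjusted p = 0.053). It passed, with Cyp2c29 and Cyp3a25, when the first EtOH array was left out of the fit. Cyp2c38 and Cyp2c39 differed by 1.61 (adjusted p = 0.076) and 1.58 (adjusted p = 0.080). Cyp2b10, the gene most used to read CAR activity, differed by 0.34 (adjusted p = 0.85), and the main hepatic Cyp3a gene, Cyp3a11, by 0.13 (adjusted p = 0.43). Among the conjugating enzymes and pumps, Gsta2 differed by 1.67 (adjusted p = 0.13), Abcc4 by 1.12 (adjusted p = 0.35) and Abcc3 by 0.92 (adjusted p = 0.30). The largest differences were thus in Cyp2b9 and Cyp2b13, which with Cyp3a16, Cyp3a44, Gstt3 and Sult1e1 stand on the female-biased list too, so that the lists shared 6 uncompressed genes.

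The DNA upstream of 5 of these genes is printed so that the windows before their starts can be compared. RefSeq (GRCm38.p6) gives the start sites, and each sequence is the 250 bases before the start on the gene's own strand. Capitals mark matches on either strand to AGGTCA, a hexamer that nuclear receptors bind. Hsd3b5 lies on the minus strand (window chr3:98645535-98645784), as does Slco1a1 (chr6:141946963-141947212). Cyp2c29 (chr19:39286835-39287084), Cyp2b9 (chr7:26173159-26173408) and Cyp2b13 (chr7:26061245-26061494) lie on the plus strand.
Hsd3b5: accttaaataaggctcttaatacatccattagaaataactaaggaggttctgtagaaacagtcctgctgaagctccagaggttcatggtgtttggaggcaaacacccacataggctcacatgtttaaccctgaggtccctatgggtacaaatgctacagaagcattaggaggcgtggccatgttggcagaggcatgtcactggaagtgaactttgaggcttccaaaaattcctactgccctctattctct
Slco1a1: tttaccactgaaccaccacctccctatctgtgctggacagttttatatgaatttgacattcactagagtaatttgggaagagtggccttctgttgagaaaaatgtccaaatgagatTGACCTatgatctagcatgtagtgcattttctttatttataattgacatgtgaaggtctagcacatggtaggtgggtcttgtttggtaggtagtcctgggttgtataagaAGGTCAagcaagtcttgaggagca
Cyp2c29: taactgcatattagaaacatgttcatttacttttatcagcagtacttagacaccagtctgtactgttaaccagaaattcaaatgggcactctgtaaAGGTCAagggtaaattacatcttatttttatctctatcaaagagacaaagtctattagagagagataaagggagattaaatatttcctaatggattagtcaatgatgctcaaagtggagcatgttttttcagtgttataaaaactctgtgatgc
Cyp2b9: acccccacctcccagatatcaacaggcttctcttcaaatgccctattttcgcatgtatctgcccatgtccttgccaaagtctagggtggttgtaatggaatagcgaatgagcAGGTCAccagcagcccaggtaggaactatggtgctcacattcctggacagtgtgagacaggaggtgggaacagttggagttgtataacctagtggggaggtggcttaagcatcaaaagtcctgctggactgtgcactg
Cyp2b13: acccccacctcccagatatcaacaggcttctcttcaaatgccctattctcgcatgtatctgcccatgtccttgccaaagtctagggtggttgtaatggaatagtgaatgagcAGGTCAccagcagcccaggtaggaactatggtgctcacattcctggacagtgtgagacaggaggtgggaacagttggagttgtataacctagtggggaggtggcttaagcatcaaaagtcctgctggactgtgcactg

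The window of Hsd3b5 holds no match. That of Cyp2c29 holds 1, beginning 154 bases before the start, and that of Slco1a1 holds 2, at 134 and 24 bases. The windows of Cyp2b9 and Cyp2b13 are equal at 248 of 250 positions and hold the match at the same place, 138 bases before the start. The hexamer occurs in 4607 of 32851 promoter windows of this length, in 6 of 26 of the male-biased list, in 7 of 27 of the female-biased list and in 12 of 43 of the CAR target list. A match is only a match of letters.

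**Figure D3:**
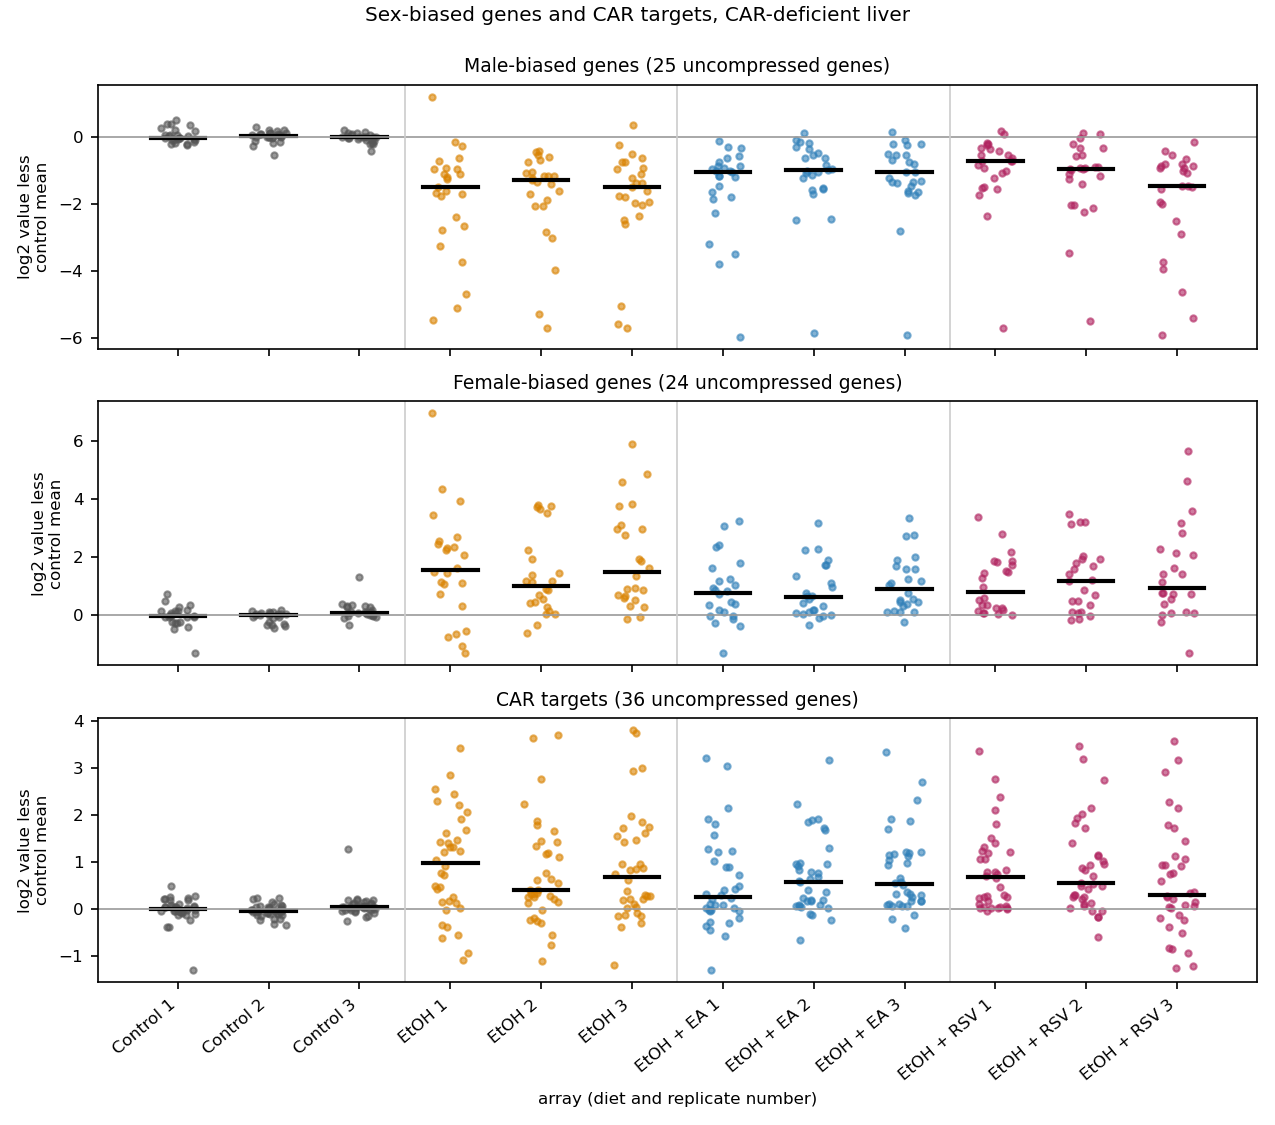
Difference of each uncompressed member of 3 gene lists from its own control mean (vertical axis, log2 DFW) in each of the 12 CAR-deficient arrays (horizontal axis, by diet and replicate), 1 point per gene with the median as a black line. The points of the male-biased list sit below 0 and those of the female-biased list above 0 in all 3 EtOH + RSV arrays for most genes, with list medians of -0.99 and 1.09, and the CAR target list has a median of 0.53.

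Antioxidant genes under the control of NRF2, the factor freed from KEAP1 by electrophiles, had 24 uncompressed of 29 measured members, none called. Of the 24, 18 were higher in sign, the median was 0.30, and 9 did not overlap, all higher, where 16% of uncompressed genes did so. With uncompressed probe sets alone 4 were called higher, against 1.85%. Nqo1, a quinone reductase, read 6.92, 6.84 and 7.02 in control and 7.75, 7.84 and 8.12 in EtOH + RSV (difference 0.98, adjusted p = 0.17). Gsta2, counted in the CAR target list also, read 9.72, 9.30 and 9.54 against 11.62, 11.67 and 10.27. The groups did not overlap in these genes, although the third EtOH + RSV array lay nearest to control for Gsta2 and farthest from it for Nqo1. The metal-binding metallothioneins differed by more, Mt1 with 11.91, 10.33 and 11.06 in control against 13.66, 13.10 and 13.83 (difference 2.43, adjusted p = 0.24), and Mt2 by 3.28 (adjusted p = 0.24). Their control arrays spread over more than 1 unit.

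Lipid metabolism showed no called gene in any of its lists. In cholesterol synthesis, 20 of 25 uncompressed genes were lower in sign with a median of -0.56, and 12 did not overlap on the lower side, where 12.4% of uncompressed genes did so. Sqle, squalene epoxidase, read 10.69, 10.60 and 10.99 in control and 10.02, 9.71 and 8.23 in EtOH + RSV (difference -1.44, adjusted p = 0.54), and Msmo1, a sterol demethylating oxidase, differed by -1.31 (adjusted p = 0.67). The third EtOH + RSV array was the lowest of its group in 23 of the 25 genes, and without it the list median was -0.21. De novo lipogenesis had a median of -0.17 with 16 of 20 genes lower in sign. Without overlap, 4 of the 20 lay above control, near the share of 16% of uncompressed genes, and 1 below, against 12.4%. Thrsp, a lipogenic nuclear protein, was at 12.21, 12.33 and 12.67 in control and at 12.16, 12.44 and 9.75 in EtOH + RSV, so that its difference of -0.95 came from the third array alone. Targets of PPAR alpha, the receptor that drives fatty acid oxidation in fasting, had a median of 0.17 with 11 of 29 not overlapping on the higher side, against 16%. Among them the thioesterase Acot3 differed by 1.48 (adjusted p = 0.40) and Pdk4, which holds back pyruvate oxidation, by 1.33 (adjusted p = 0.35). Fatty acid oxidation and ketogenesis had a median of -0.02, with 14 of 33 genes higher in sign.

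Single lipid genes differed by more than their lists. Lpl, lipoprotein lipase, read 10.33, 10.43 and 10.16 in control and 9.32, 9.51 and 9.45 in EtOH + RSV (difference -0.88, adjusted p = 0.097). Cd36, the fatty acid translocase, read 9.07, 8.75 and 9.08 against 9.86, 9.73 and 9.81 (difference 0.84, adjusted p = 0.29), and it passed without the first EtOH array. Fabp5, a fatty acid binding protein, differed by -1.51 (adjusted p = 0.34) and the lipase inhibitor G0s2 by 2.01 (adjusted p = 0.60). None of these groups overlapped. In bile acid synthesis Cyp7a1, its rate-limiting enzyme, read 12.61, 11.87 and 12.33 against 11.54, 11.07 and 8.75 (difference -1.82, adjusted p = 0.61), again lowest in the third array.

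Genes of alcohol, acetaldehyde and acetate metabolism had 13 uncompressed members, 6 higher and 7 lower in sign, with a median of -0.05. Adh4 differed by -0.56 (adjusted p = 0.69) and Aldh3a2, a fatty aldehyde dehydrogenase, by 0.51 (adjusted p = 0.77). In the retinoid list, Cyp26a1, which degrades retinoic acid, read 7.78, 8.11 and 8.41 in control and 10.59, 10.93 and 10.03 in EtOH + RSV (difference 2.41, adjusted p = 0.25), and Cyp26b1 differed by 1.36 (adjusted p = 0.32). Both retinoic acid hydroxylases lay above control without overlap, while 10 of the 18 uncompressed genes of that list were lower in sign.

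Chaperones and disulfide isomerases of the endoplasmic reticulum had 23 uncompressed members, 18 lower in sign, with a median of -0.27 and 9 not overlapping, all lower, against 12.4% of uncompressed genes. Manf, a secreted stress factor, read 10.96, 11.24 and 11.24 in control and 10.35, 10.21 and 10.63 in EtOH + RSV (difference -0.75, adjusted p = 0.67). The list median lay between -0.32 and -0.23 when any of the 6 arrays was left out. Sensors of unfolded protein and degradation factors had a median of -0.13, with Syvn1, a ligase of that degradation pathway, at -0.70 (adjusted p = 0.33) and Eif2ak3, the kinase PERK, at -0.66 (adjusted p = 0.13). Translocon and vesicle coat genes had a median of -0.08, 10 of 31 not overlapping on the lower side, against 12.4%, and 1 on the higher side, against 16%.

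Proteasome subunits lay higher in 33 of 37 uncompressed genes, with a median of 0.16 and 14 not overlapping above control, against 16% of uncompressed genes. Psmc2, an ATPase of the proteasome cap, read 11.53, 11.60 and 11.58 against 11.88, 11.90 and 12.19 (difference 0.42, adjusted p = 0.21). All 31 uncompressed respiratory chain genes were lower in sign, but by little, with a median of -0.11, and 3 did not overlap, near the 12.4% of all uncompressed genes. The third EtOH + RSV array was the lowest of its group in 30 of the 31, and without it the median was -0.03. The proteasome median without that array was 0.09. Among cytosolic heat shock proteins Hspa1a, an inducible HSP70, read 8.08, 8.09 and 7.49 in control and 6.41, 6.35 and 6.78 in EtOH + RSV (difference -1.38, adjusted p = 0.064). The splicing factor Srsf5 read 11.22, 11.43 and 11.31 against 11.92, 11.92 and 11.94 (difference 0.61, adjusted p = 0.053). Both passed the test when the first EtOH array was left out of the fit.

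**Figure D4:**
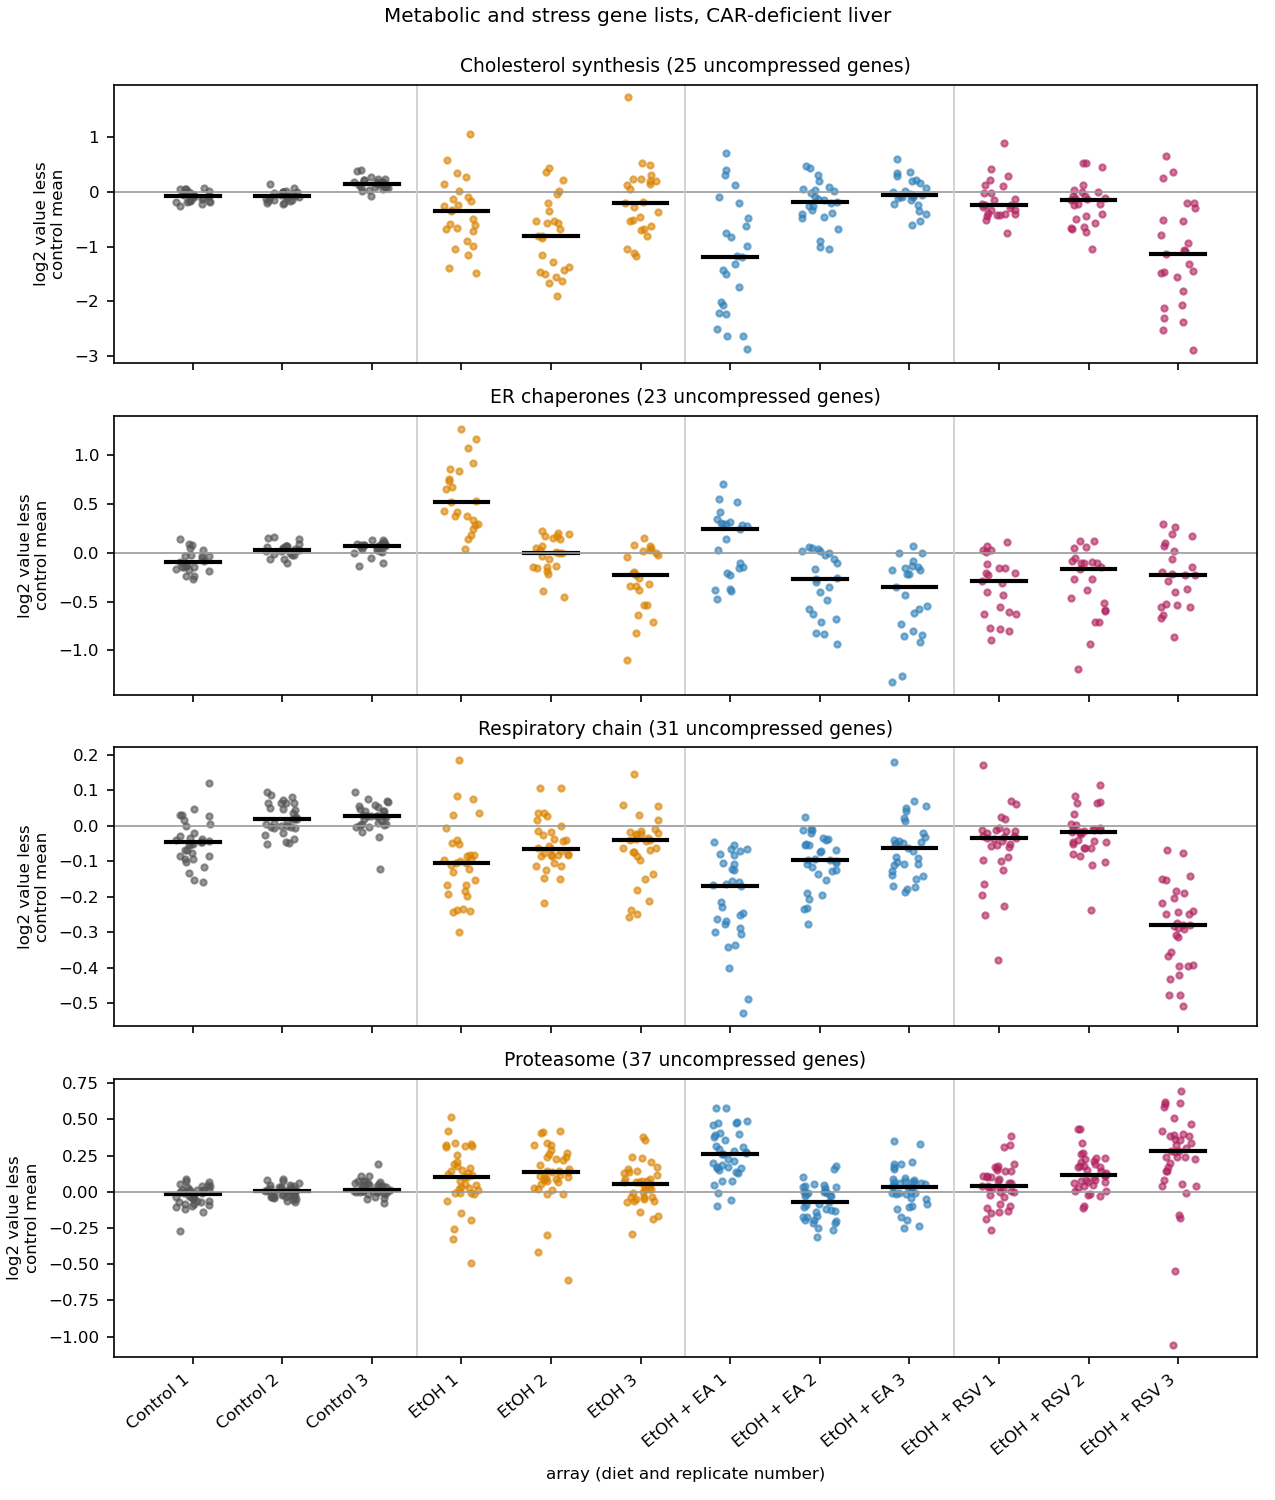
Difference of each uncompressed list member from its own control mean (vertical axis, log2 DFW) in the 12 CAR-deficient arrays (horizontal axis, by diet and replicate) for genes of cholesterol synthesis, endoplasmic reticulum chaperones, respiratory chain and proteasome, 1 point per gene with the median as a black line. The cholesterol synthesis genes lie lower in the third EtOH + RSV array than in the first and second, and their median against control is -0.56 with it and -0.21 without it.

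Of the 47 pathway lists, 45 held no gene called on its brightest probe set, by which each gene is represented in the lists. Sec61a1 of the translocon list and Pdia6 of the chaperone list were called on other probe sets. Among the lists without a description above, medians ran from -0.24 for elongases and desaturases to 0.24 for sinusoid and organic ion carriers. Circadian repressors had a median of -0.05 and circadian activators and output genes 0.15. In the latter Noct, a rhythmic phosphatase of NADP, was at 9.94, 9.94 and 10.05 in control and 8.23, 8.33 and 8.53 in EtOH + RSV (difference -1.61, adjusted p = 0.25). Acute phase proteins had a median of 0.15, urea cycle genes 0.13 and hepcidin and iron genes 0.08. Hamp2, a hepcidin paralogue, read 10.37, 11.15 and 11.53 against 13.48, 13.40 and 11.73 (difference 1.86, adjusted p = 0.32).

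Markers of liver cell types were read as a check of the tissue. The 8 uncompressed hepatocyte markers had a mean level of 13.88 to 13.92 in the control arrays and 13.81 to 13.93 in the EtOH + RSV arrays, with a median difference of -0.02 and none separated. Kupffer cell markers lay lower in 11 of 13 genes with a median of -0.23, and 5 did not overlap on the lower side, against 12.4% of uncompressed genes. Their mean level was 9.51 to 9.67 in control and 9.38 to 9.54 in EtOH + RSV. Fcna, a Kupffer ficolin, went the other way, from 10.23, 10.34 and 10.27 to 10.67, 10.88 and 10.84 (difference 0.51, adjusted p = 0.076). Of the 8 stellate cell and fibroblast markers that were uncompressed, 5 lay above control without overlap, against 16%, with a median of 0.20. Dcn, the matrix proteoglycan decorin, read 11.64, 11.95 and 11.84 against 12.34, 12.36 and 12.63 (difference 0.63, adjusted p = 0.078). Sinusoidal endothelial markers had a mean level of 9.41 to 9.50 in control and 9.48 to 9.70 in EtOH + RSV. Of the pancreatic acinar list, Cela1 was the single uncompressed gene, at 10.56, 10.95 and 11.01 against 10.31, 9.76 and 8.73. Of the adipocyte list 2 of 5 genes were uncompressed. Adipoq, the fat hormone adiponectin, read 5.89, 6.10 and 7.64 in EtOH + RSV, and Fabp4, the fatty acid binding protein of fat cells, 8.67, 8.80 and 9.33, beside 9.18 in the third EtOH + EA array and 9.06 in the first EtOH array. The remaining lists had few uncompressed members: 1 of 7 cholangiocyte, 3 of 12 neutrophil and monocyte, 1 of 13 lymphocyte and 4 of 6 erythroid genes. Alas2, the heme synthesis enzyme of red cells, which is on the male-biased list too, read 9.70, 9.87 and 10.08 in control and 8.95, 8.48 and 7.38 in EtOH + RSV (difference -1.61, adjusted p = 0.15). No marker passed the test over all probe sets. With uncompressed probe sets alone, Fcna (adjusted p = 0.021) and Dcn (adjusted p = 0.019) were called higher and Alas2 lower (adjusted p = 0.034). In that setting 1.85% of all uncompressed genes were called higher and 1% lower. The share of cell composition in the differences above was not tested.

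Whether resveratrol changed what ethanol alone gave was asked by comparing EtOH + RSV with EtOH in the same fit. No probe set passed (0%) under limma, and the rank product called 70, of which 52 were higher. An unadjusted limma p below 0.05 was reached by 2459 of 45011 probe sets, where a share of 0.05 would do so without any difference. The smallest adjusted p was 0.231, for Zfp760, which read 7.59, 7.62 and 7.58 with EtOH and 7.84, 7.86 and 7.87 with EtOH + RSV (difference 0.26). Next to it, Rcor3 differed by 0.18 (adjusted p = 0.254), with 8.09, 8.11 and 8.15 against 8.31, 8.29 and 8.31. Neither gene's groups overlapped. EtOH less control was 0.41 for Rcor3 and 0.08 for Zfp760. Against EtOH + EA no probe set passed either, the rank product called 45, and the smallest adjusted p was 0.188. Here 1342 of the 45011 had an unadjusted limma p below 0.05.

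The comparisons of EtOH and of EtOH + EA with control use the same 3 control arrays, so they are given only side by side. EtOH called 155 probe sets (0.344%), 80 higher and 75 lower, or 12 with the replicate number as a block, and EtOH + EA called 81 (0.18%), 42 higher and 39 lower. With uncompressed probe sets alone the counts were 350 (3.76%) and 365 (3.92%). Hsd3b5 differed from control by -5.61 with EtOH and by -5.89 with EtOH + EA, and Cyp2c29 by 2.88 and 1.92. Slc2a1 differed by 0.92 and 1.26 on its brightest probe set, Cblb by 0.68 and 0.54, and Gpr137b by -1.40 and -1.74. The median of the male-biased list was -1.33 with EtOH, -1.05 with EtOH + EA and -0.99 with EtOH + RSV. That of the female-biased list was 1.497, 0.711 and 1.094, and that of the CAR targets 0.73, 0.46 and 0.53.

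Against EtOH itself, interferon-stimulated genes lay on the higher side. All 27 uncompressed members were higher in sign with EtOH + RSV, with a median of 0.41 and none called. In 11 of them the groups did not overlap, where 3.43% of uncompressed probe sets lay above the EtOH arrays in this way. Gbp3, a guanylate-binding GTPase, read 6.62, 6.92 and 7.27 with EtOH and 7.88, 7.87 and 7.72 with EtOH + RSV (difference 0.88, adjusted p = 0.87). Usp18, which removes ISG15 from proteins, read 7.94, 8.38 and 8.07 against 9.09, 8.46 and 8.66 (difference 0.61, adjusted p = 0.87). The EtOH arrays were the low ones, since control read 8.11, 7.79 and 7.41 for Gbp3 and 9.18, 9.16 and 9.03 for Usp18, and the list median against control was -0.01. Without the first EtOH array the median against EtOH was 0.36 with 26 of 27 higher.

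Chaperones of the endoplasmic reticulum lay the other way against EtOH, with 23 of 23 lower in sign and a median of -0.36. In 3 of them the groups did not overlap, where 4.38% of uncompressed probe sets lay below the EtOH arrays in this way. Here the first EtOH array weighed heavily, since the median without it was -0.14, with 21 of 23 lower. The male-biased list had a median of 0.35 against EtOH, or 0.32 without the first EtOH array, and 22 of 25 were higher in sign. In 4 of them the EtOH + RSV arrays lay above all EtOH arrays, where 3.43% of uncompressed probe sets did so. Slco1a1 was at 7.25, 7.06 and 6.76 with EtOH against the 9.99, 8.88 and 6.94 given above (difference 1.58, adjusted p = 0.91), so the third EtOH + RSV array lay within the EtOH range and the others above it.

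In wild-type mice the same contrast called 8885 of 45037 probe sets (19.7%), with 4 arrays per diet. Of the wild-type probe sets 85.3% were compressed. With only uncompressed ones tested 3506 were called, beside 276 in CAR-deficient liver. The DFW summaries of the genotypes were made separately, so the values stand side by side and the difference between genotypes was not tested. Hsd3b5 fell by 3.18 in wild-type liver (adjusted p = 0.0050) and Cyp2c29 rose by 1.12 (adjusted p = 6.471e-06). Slc2a1 rose by 1.21 (adjusted p = 5.238e-04), Slc8b1 by 0.67 (adjusted p = 0.0025) and Sp1 by 0.42 (adjusted p = 0.0013). Sec61a1 fell by 0.67 and Ddx46 differed by -0.35 (adjusted p = 0.0120). Rffl differed by -0.05 (adjusted p = 0.60) and Cblb by 0.18 (adjusted p = 0.28), and the probe set of Gpr137b was compressed in wild type. Cyp2b9 rose by 2.56 (adjusted p = 0.0097) and Gsta2 by 2.702 (adjusted p = 4.2e-07).

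The profile of all probe sets put the groups apart by the distance 1 minus r, which averaged 0.00965 between EtOH + RSV and control arrays and 0.00554 within the groups. The difference of 0.00412 gave p = 0.1 in a one-sided exact permutation test, the smallest p that 3 against 3 arrays allow, and p = 0.3 without the first or the second control array. Against EtOH the difference was -0.00059 (p = 0.7 in the exact permutation test), so arrays of these groups were no farther from each other than from their own group.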

How the data were processed

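RNA of whole liver was hybridised to Affymetrix GeneChip whole-genome mouse arrays, 1 mouse per array. The deposited log2 values were made by the authors with the Distribution Free Weighted method, separately for the 16 wild-type and the 12 CAR-deficient arrays, so levels were not tested across genotypes. No further normalisation was applied. Groups came from the array labels. A linear model with a mean per diet was fitted to the 12 CAR-deficient arrays with limma 3.58.1 in R 4.3.3 (lmFit and eBayes, two-sided), and p-values were adjusted by the Benjamini-Hochberg method over 45011 probe sets, with a threshold of 0.05. Tables and figures were made with Python 3.11.15, pandas 2.3.3, numpy 2.4.6 and matplotlib 3.10.9. With 3 mice per diet, the number of arrays limits the precision. The model was also run on simulated data with known changes and independent noise. No outlying array was simulated, so that run does not cover arrays such as the first EtOH array.

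Of the probe sets, 34925 named 1 gene in the platform annotation, 932 several and 9154 none. In lists a gene is represented by its probe set of highest mean over the 12 arrays. A group was said not to overlap when its 3 arrays all lay on one side of the other 3. Alternatives were a minimum difference of 0.1, quantile normalisation, probe sets above the median level, probe sets not shared between transcripts, uncompressed probe sets only, the replicate number as a block, only the diets compared, an intensity trend with robust variance, each array left out, and the rank product (50 permutations). The study also selected probe sets by the rank product, but on values made with another normalisation method, qFARMS. The genes described are the called genes by size of difference. Other members of lists were named after their values were seen, mostly those of large difference, and not by a fixed number per list. The comparison and the gene lists were chosen with earlier results of these data known.

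The correlations of same-numbered control and EtOH + RSV arrays, as deviations from their group means, were -0.29, 0.07 and -0.50. Those of control and EtOH arrays were 0.41, 0.29 and 0.33, and each EtOH array correlated best with the control array of its own number. The labels give no pairs, and 3 arrays per group are too few to settle whether the numbers pair these samples.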

Additional observations from a re-analysis of the deposited data

How the results depend on the processing

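The 27 probe sets called in EtOH + RSV against control (15 higher, 12 lower, 22 uncompressed) were 22, 19, 20 and 30 with a minimum difference, quantile normalisation, unshared probe sets or an intensity trend. Among probe sets above the median level 48 were called (32 higher, 43 uncompressed), among uncompressed ones 276 (180 higher, 96 lower), with the fit limited to both diets 12 (4 higher, 11 uncompressed), and by the rank product 969 (519 higher, 450 lower). With the replicate number as a block 14 were called (8 higher, 6 lower, 13 uncompressed). No EtOH + RSV array correlated best with the control array of its own number, while each EtOH array did, so whether the numbers pair the samples is not settled. With single arrays left out of the fit the count ran from 10 to 128, the uncompressed count from 10 to 98, the higher from 6 to 80 and the lower from 3 to 48, the highest values being those without the first EtOH array.

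Against EtOH the count of 0 became 1 without the third control array (range 0 to 1) and 70 by the rank product, and against EtOH + EA 45 by the rank product. The 155 calls of EtOH against control became 92 with a minimum difference of 0.1, 52 with quantile normalisation, 350 among uncompressed probe sets, 12 with the block, 7 with both diets alone, 835 by the rank product and 6 to 153 with an array left out. The 81 of EtOH + EA became 50, 26, 365, 9, 11 and 1342 in the same order, and 6 to 173. The 8885 of the wild type became 2782, 24999 and 3506 in the first 3 of these settings, 5465 with both diets alone, 3608 by the rank product and 5757 to 9243 with an array left out, and were 9086 with the block. The cause of these shifts was not tested.

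For the 18 called genes, 242 of 330 values under an alternative kept direction and side of the threshold, 86 kept the direction only, and 2 reversed, Pcnt at -0.01 and Pcm1 at -0.0018 with quantile normalisation, both on compressed probe sets.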
